A study of Homo sapiens with 21 samples.

Results

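The subunits of the mitochondrial respiratory chain that are encoded in the nucleus were followed over a range of coumarin doses in cells labelled HepG2, the name of a line grown from a human hepatocellular carcinoma. Members were chosen by name from the protein-coding genes of the deposited count table: symbols that begin with NDUFA, NDUFB, NDUFC, NDUFS or NDUFV and a digit, the 4 genes SDHA to SDHD, and symbols that begin with UQCR, with COX4 to COX8 or with ATP5. The rule found 90 of the 58735 genes in the table, and 82 of these had enough reads to be tested, among 16196 genes tested in all. Complex I held 37 of the 90 members (36 tested), complex II 4 (4 tested), complex III 9 (9 tested), complex IV 19 (14 tested) and complex V 21 (19 tested). Coumarin is a benzopyrone found in tonka bean and cassia cinnamon. Cells were kept for 6 h in serum-free DMEM, without coumarin (0 µM, labelled untreated) or with 0.001, 0.01, 0.1, 1, 10 or 100 µM, and polyadenylated RNA was sequenced. Each of the 7 groups had 3 libraries, called biological replicates in the design text, so there were 21 libraries, and p-values measure only the spread between these samples. Every dose was compared with the same 3 control libraries.

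The respiratory chain sits in the inner mitochondrial membrane. Complex I (NADH dehydrogenase) and complex II (succinate dehydrogenase, also an enzyme of the citric acid cycle) pass electrons to ubiquinone, complex III passes them to cytochrome c, and complex IV (cytochrome c oxidase) passes them to oxygen. Complexes I, III and IV pump protons as they do so, and complex V (ATP synthase) uses the returning protons to make ATP. Most subunits are made in the cytosol from nuclear genes and imported, while mitochondrial DNA encodes a few core subunits of every complex except complex II. In liver this machinery supplies the ATP for gluconeogenesis, urea synthesis and lipid handling.

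Total counts ranged from 27984517 to 43704155 per library, so that 3 counts corresponded to 0.0686 to 0.107 CPM (counts scaled to a common library total, with TMM factors of 0.984 to 1.02; counting error only). No replicate pair agreed within counting error (21 pairs, chi-square divided by its degrees of freedom 2.61 to 11.6), and all libraries were kept. The label HepG2 was checked against marker genes. Of 15 hepatocyte genes, none reached a mean of 1 CPM, ALB, SERPINA1, FGA and FGB had 0 reads in every library, and the list summed to 0.0290 to 0.276 CPM per library. Markers of simple epithelium were mixed: 3 of 6 (KRT7, KRT8 and KRT18) reached a mean of 1 CPM, KRT19 and CDH1 did not, and EPCAM had 0 reads. Of 7 mesenchymal markers, 6 reached 1 CPM. The summed levels were 4056 to 4854 CPM for the epithelial list and 1644 to 1819 CPM for the mesenchymal list. The 5 blood markers summed to 0.0715 to 0.649 CPM, with HBB and CD3E at 0, and the 3 endothelial markers to 0.590 to 1.35 CPM. Of 6 genes of skeletal and cardiac muscle TTN alone reached 1 CPM, MYH7 and ACTN2 were at 0, and the list summed to 11.9 to 20.8 CPM. The members' values thus come from cells without the defining hepatocyte transcripts.

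Respiratory chain transcripts were abundant. The 82 tested members had a median of 34.8 FPKM (fragments per kilobase of gene length, scaled for depth, from the authors' values, mean of 21 libraries), against 3.38 for all tested genes, and together they took 1.06% to 1.17% of the counts in each library. By complex the median level was 23.8 FPKM for complex I, 30.8 for complex II, 31.5 for complex III, 54.9 for complex IV and 46.6 for complex V. The spread inside a complex was much wider than that between complexes, as the plot of levels by complex shows.

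**Figure D1:**
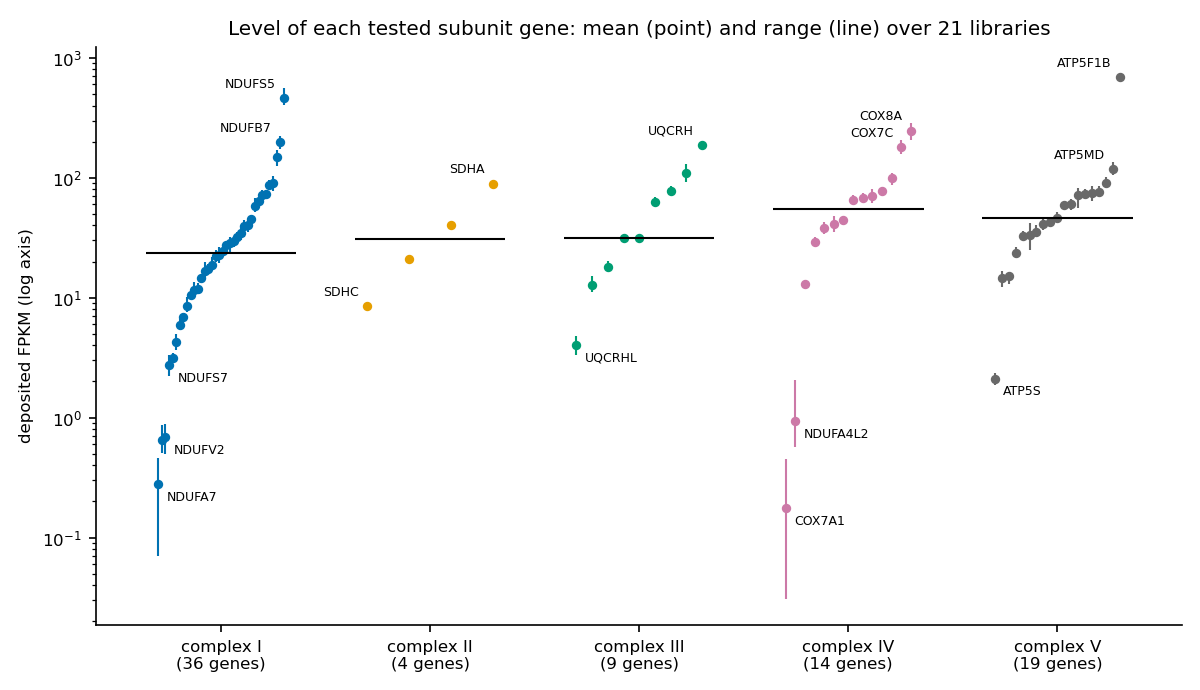
Level of each tested member in FPKM (log axis) in complexes I to V, with a point for the mean and a vertical line for the range over the 21 libraries, and a horizontal line for the median of each complex. Complex medians lie between 23.8 and 54.9 FPKM, while single members reach from 0.176 FPKM (COX7A1) to 689 FPKM (ATP5F1B).

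In complex I the highest transcripts were NDUFS5, at 459.6 ± 31.2 FPKM (mean ± SD over the 21 libraries of all doses), NDUFB7 at 198 ± 10.5 and NDUFS6 at 148 ± 10.1, which encode small subunits around the catalytic core. NDUFS1, the longest gene of complex I among those tested (12268 bases of exon), encodes its largest core subunit, which carries iron-sulfur clusters, and stood at 14.6 ± 0.437 FPKM. The 4 genes of complex II were not at equal levels. SDHA, the flavoprotein subunit that oxidises succinate, had 89.4 ± 3.20 FPKM and SDHB, the iron-sulfur subunit, 40.4 ± 1.80. The membrane anchors were lower, with 21.2 ± 0.877 FPKM for SDHD and 8.45 ± 0.276 for SDHC. In complex III, UQCRH, the hinge protein, had 189 ± 8.42 FPKM, UQCRQ, a small subunit also called the ubiquinone-binding protein, 109.8 ± 7.75, and the core protein gene UQCRC1 77.8 ± 3.05, whereas UQCR11 (12.8 ± 0.893 FPKM) and UQCRHL (4.02 ± 0.389 FPKM) were lowest. UQCR10 and UQCRB, the shortest and the longest gene of complex III at 975 and 9715 bases, stood at 62.3 ± 2.92 and 18.1 ± 0.983 FPKM.

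Among the complex V genes, ATP5F1B, the catalytic beta subunit that binds the nucleotide, was the highest member of all, at 689 ± 23.1 FPKM. ATP5MD, a small membrane subunit, had 118 ± 7.05 FPKM, and ATP5MC1, one of 3 genes for the c subunit of the rotor ring, 90.3 ± 4.52. ATP5IF1, which encodes the inhibitor protein that blocks ATP hydrolysis by the enzyme, had 74.4 ± 4.39 FPKM. ATP5S, which encodes coupling factor B, was the lowest tested complex V gene at 2.11 ± 0.117 FPKM. On this scale the catalytic subunit stood well above the other complex V genes. The scale divides by all exon bases of a gene, which can far exceed the principal coding transcript. For ATP5F1B these lengths are 2322 and 1839 bases, and for ATP5MF (71.8 FPKM) 2275 and 305. The order of genes within any complex may thus differ by transcript length, which was not tested.

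For the subunits of complex IV that have tissue isoforms, the ubiquitous isoform carried almost all of the reads. COX4I1 had 67.3 ± 3.30 FPKM and COX4I2, its hypoxia-linked relative, 2 reads over all 21 libraries. COX6A1, the liver-type isoform of subunit VIa, had 41.2 ± 3.79 FPKM, while the heart and muscle isoform COX6A2 had 0 reads. COX6B1 had 100.3 ± 4.72 FPKM against 78 reads in all for the testis isoform COX6B2, and COX8A 248 ± 20.8 FPKM against 3 reads for COX8C. The non-muscle isoform COX7A2 stood at 70.6 ± 4.10 FPKM and the muscle isoform COX7A1 at 0.176 ± 0.106. COX7C, with no such partner, was the second highest complex IV gene at 181 ± 11.0 FPKM, and COX7A2L, which helps join complexes into supercomplexes, had 13.1 ± 0.565. NDUFA4, once counted with complex I and now with complex IV, had 44.4 ± 2.05 FPKM, and its relative NDUFA4L2, which is known as a hypoxia-induced gene, 0.933 ± 0.371. UQCRH and UQCRHL form a pair in complex III: over 515 aligned transcript bases 505 were identical (98.1%), so reads of one may be counted for the other. Including COX4I2, COX6A2, COX6B2 and COX8C, the members with too few reads for a test were 8. The other 4 were COX7B2 (0 reads), ATP5MGL (8) and the read-through genes NDUFC2-KCTD14 (1) and ATP5MF-PTCD1 (35).

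Some low levels belong to genes that share exons with others, but not all do. COX7A1, the lowest tested member at 0.176 FPKM, overlaps no other gene. COX8A, the highest complex IV gene at 248 FPKM, shares 34.5% of its exon bases on its own strand. A link between overlap and level was not tested. Of the 82 tested members, 24 overlapped another gene's exons on their own strand and had a median of 21.7 FPKM. Another 22 overlapped on the other strand only (37.2 FPKM), and 36 overlapped none (53.7 FPKM). Whether the counting used strand is not given in the sources used here, so counts of overlapping members are uncertain. The lowest complex I levels were those of such genes. NDUFA7 had 0.277 ± 0.0885 FPKM and shares 32.3% of its exon bases with AC010323.1 on its own strand. It also overlaps RPS28 on the other strand. NDUFA13 had 0.654 ± 0.104 FPKM and overlaps AC011448.1 and YJEFN3 on its own strand. NDUFV2, which encodes a core subunit and overlaps AP005263.1, had 0.684 ± 0.104 FPKM; this member was picked out for its overlap after its value was seen.

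Across the 21 libraries most members varied little. Their median coefficient of variation was 5.09%, against 7.34% for all tested genes and 4.28% for the 3298 tested genes at levels between the lower and upper quartile of the members. Complex II was steadiest at 3.62%, complex III had 4.29%, and complexes I, IV and V had 5.22%, 5.39% and 5.30%. The widest were low-count genes, COX7A1 at 60.0%, NDUFA4L2 at 39.7% and NDUFA7 at 31.8%. Of members with ample reads, ATP5ME (13.4%), NDUFS7 (10.9%), NDUFB1 (9.52%), UQCRHL (9.42%) and COX6A1 (9.11%) varied most, and these 5 recur in the dose comparisons. The coefficient is taken over all doses and so includes differences between doses, which makes members called between doses rank high on it by construction.

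Members tended to move together from library to library, including within a dose. For each library, the log2 ratio of each member to its mean over all libraries was taken. The median of these ratios was lowest in 0 µM replicate 2, at -0.10, where 73 of 82 members were below their mean. It was highest in 0.001 µM replicate 3 (0.097, with 7 members below their mean), 10 µM replicate 3 (0.071, 8 below) and 0.1 µM replicate 1 (0.057, 12 below). The 3 libraries at 100 µM lay close together, at -0.025, -0.028 and -0.024. Averaged by dose, the library medians were -0.038 ± 0.060 at 0 µM (SD, n = 3), 0.024 ± 0.064 at 0.001 µM, 0.011 ± 0.028 at 0.01 µM and 0.015 ± 0.037 at 0.1 µM. At 1 µM the mean was -0.034 ± 0.015, at 10 µM 0.040 ± 0.032 and at 100 µM -0.026 ± 0.0020. The control group and the 0.001 µM group therefore had the widest spread, and 0 µM replicate 2 stood apart from its 2 partners. In that library the median was -0.11 for complex I, -0.036 for complex II, -0.099 for complex III, -0.13 for complex IV and -0.090 for complex V.

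Respiratory chain genes are short, and the libraries differed in how counts varied with gene length. The members' deposited gene length (all exon bases of a gene) had a median of 2545 bases, from 507 for COX8A to 14160 for SDHC, against 4233 for all tested genes; the principal coding transcripts had medians of 924 and 3002 bases. Each library's length trend was the slope of the log2 ratio over log2 gene length in the 11573 other genes whose average log2 CPM was 1 or more, a level that 78 of the 82 members reached. It was 0.038 per doubling of length in 0 µM replicate 2, the steepest rise, so short genes were relatively low there. The steepest falls were -0.039 in 0.1 µM replicate 1 and -0.029 in 0.001 µM replicate 3, where short genes were relatively high. The 10 µM libraries had slopes of -0.0060, -0.015 and -0.011, the 1 µM libraries 0.018, 0.016 and 0.0017, and the 100 µM libraries -0.0080, 0.00023 and -0.0020. Over all tested genes, low-count genes included, slopes ran from -0.014 in 0.01 µM replicate 3 (members' median 0.040) to 0.031 in 10 µM replicate 1 (0.041). On that measure 0 µM replicate 2 had -0.0012. By the slopes over well-measured genes, 0 µM replicate 2, with the steepest rise, had the lowest members' median. The 2 libraries with the steepest falls on that measure were among the 3 with the highest. This match did not hold over all tested genes, where the libraries with the steepest rise and the steepest fall both had members' medians above 0. The part of the length trend in the members' values was not tested beyond the length offsets given below.

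**Figure D2:**
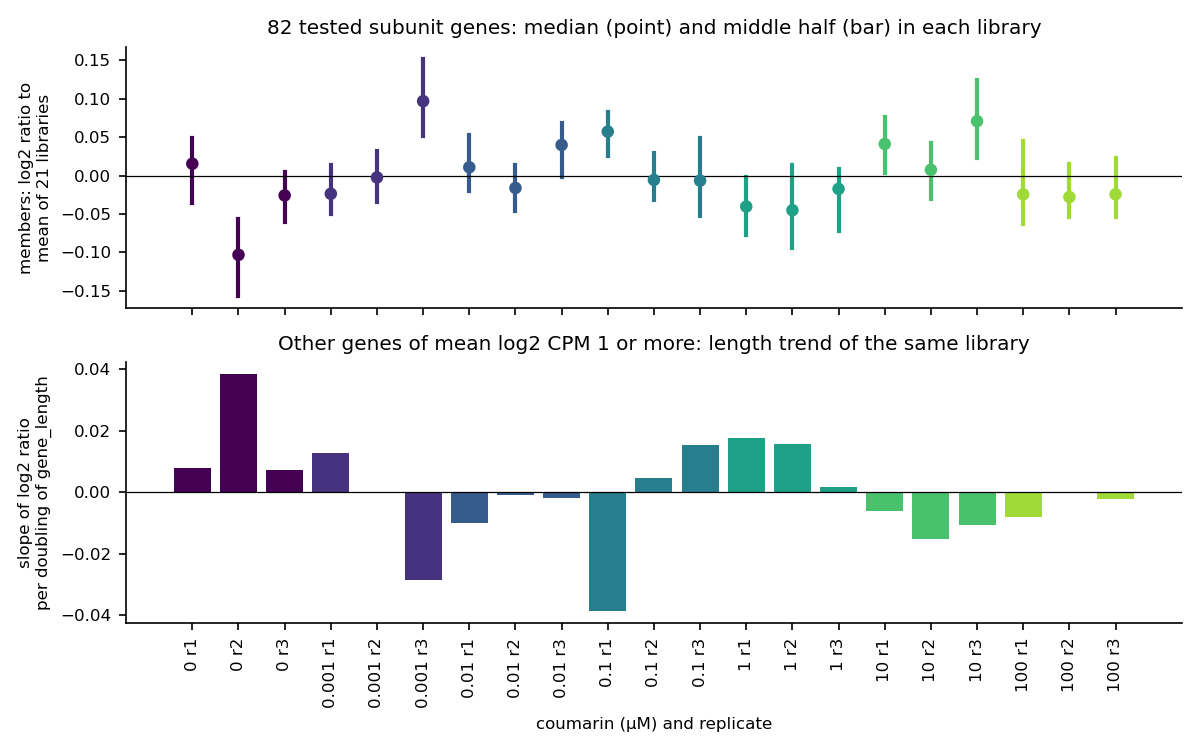
For each library, by dose and replicate, the upper panel shows the median log2 ratio of the 82 members to their all-library mean (points, with bars from the lower to the upper quartile) and the lower panel the slope of log2 ratio per doubling of gene length in the other 11573 well-measured genes. 0 µM replicate 2 has a median of -0.10 and a slope of 0.038, and 0.001 µM replicate 3 has 0.097 and -0.029.

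Members were set beside other well-measured genes of the same length in 0 µM replicate 2 and in the 3 libraries with the highest members' medians. These libraries were chosen for those medians, so that members lie far from their mean in them by choice. In 0 µM replicate 2, members under 1000 bases had a median log2 ratio of -0.16, against -0.065 for other well-measured genes of that length. Members of 4000 bases and over had -0.081, against 0.026 for the others. In 0.001 µM replicate 3 the members' medians were 0.16, 0.10, 0.083 and 0.072 from the shortest to the longest class (limits at 1000, 2000 and 4000 bases), and those of other genes 0.054, 0.064, 0.035 and -0.017. The same order of members and others held in 10 µM replicate 3, with 0.12, 0.10, 0.063 and 0.037 for members and 0.034, 0.036, 0.014 and -0.00071 for others. In 0.1 µM replicate 1 members had 0.077, 0.039, 0.066 and 0.034 and others 0.066, 0.065, 0.043 and -0.026, so that members from 1000 to under 2000 bases lay below other genes of that length.

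Promoters were examined because many nuclear genes of the respiratory chain are known targets of NRF1 and of the ETS factor GABP. The 250 bases before the RefSeq start site (GRCh38.p14) were matched for 70 of the 90 members and searched on both strands. The NRF1 motif (GCGCA, any base, then GCGC) was in 15 of 70 (21.4%), against 5.53% of all 27305 promoters. The ETS motif, CCGGAAG, was in 17 (24.3%, against 8.82%), the GC box GGGCGG in 40 (57.1%, against 42.3%), and the TATA box letters TATAAA in 7 (10.0%, against 11.1%). A match is a description of the letters and not a measured site. The windows of COX6A1 and COX8A, which rose at both 10 and 100 µM in the comparisons that follow, and of ATP5ME, one of the members whose level fell over the doses, were chosen after those values were seen. They are printed 5′ to 3′ with the motif letters in capitals (ETS for COX6A1 and COX8A, where it reads CTTCCGG on the strand shown, and NRF1 for ATP5ME).
COX6A1 (chr12:120437863-120438112, plus strand): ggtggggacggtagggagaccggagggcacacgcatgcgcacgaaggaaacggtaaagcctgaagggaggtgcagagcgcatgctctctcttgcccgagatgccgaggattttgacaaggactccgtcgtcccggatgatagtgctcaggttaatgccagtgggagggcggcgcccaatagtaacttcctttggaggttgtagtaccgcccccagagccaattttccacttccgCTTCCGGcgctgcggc
COX8A (chr11:63974370-63974619, plus strand): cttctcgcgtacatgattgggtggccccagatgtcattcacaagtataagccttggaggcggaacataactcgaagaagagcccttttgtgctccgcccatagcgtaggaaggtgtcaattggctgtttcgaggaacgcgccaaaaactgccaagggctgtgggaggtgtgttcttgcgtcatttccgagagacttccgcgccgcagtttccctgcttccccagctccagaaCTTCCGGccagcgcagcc
ATP5ME (chr4:674339-674526, minus strand): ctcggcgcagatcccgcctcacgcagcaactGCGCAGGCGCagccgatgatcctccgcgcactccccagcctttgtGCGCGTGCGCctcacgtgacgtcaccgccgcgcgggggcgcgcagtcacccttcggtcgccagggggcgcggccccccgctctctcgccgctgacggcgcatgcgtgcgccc
COX6A1 and COX8A each held the ETS letters close to the start site and no NRF1 letters, and ATP5ME held NRF1 letters at 2 places and no ETS letters. The last 23 bases of the COX6A1 window and the last 13 of the COX8A window lie inside their GENCODE 29 genes. The ETS letters of COX6A1 thus lie wholly inside its annotated gene, and those of COX8A partly. The ATP5ME window stops where its GENCODE 29 gene begins and is 188 bases long.

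At the 4 lowest doses no member was called against control. Counts in bulk RNA are shares of a library, so a smaller share of cells that hold a transcript and less of it per cell cannot be told apart. At 0.001, 0.01, 0.1 and 1 µM, 0 of 82 members were called by edgeR's quasi-likelihood test (adjusted p under 0.05), as were 0 of all 16196 genes (0%). The smallest adjusted p of any member was 0.574, 0.544, 0.687 and 1.00. Members with an unadjusted p under 0.05 numbered 16 (19.5%), 16 (19.5%), 10 (12.2%) and 3 (3.66%), against 8.21%, 8.74%, 6.09% and 3.76% of all genes. DESeq2 and limma on log2(FPKM + 1) called 0 members at each of these doses. The members' median log2 fold change was 0.070, 0.045, 0.052 and 0.010, against 0.0029, 0.0010, 0.000069 and 0.0027 for all tested genes, and 70, 65, 74 and 48 of the 82 were above 0. All 3 treated libraries lay above all 3 controls for 10, 11, 11 and 2 members, while this held for 5.56%, 7.35%, 4.46% and 4.26% of all genes. 0 µM replicate 2 was low for most members, and the medians without it were 0.027, 0.0093, 0.028 and -0.021.

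Complex IV had the largest median of the 5 complexes at 0.001, 0.1 and 1 µM, and complex I at 0.01 µM; differences between complexes were not tested. At 0.001 µM the median log2 fold change was 0.072 in complex I and 0.073 in complex IV, 0.068 in complex V, 0.059 in complex III and 0.0086 in complex II. At 0.1 µM complex IV had 0.081 and the other complexes 0.042 to 0.055. At 1 µM the 5 medians lay between -0.017 (complex V) and 0.022 (complex IV). Complex II genes had small differences: SDHA, for example, had log2 fold changes of 0.038, 0.085, 0.034 and 0.016 at the 4 doses, and SDHB -0.015, -0.046, 0.057 and -0.00082. The members with the smallest p at these doses were NDUFS5 at 0.001 µM (log2 fold change 0.17, SE 0.053, adjusted p = 0.574), NDUFS6 at 0.01 µM (log2 fold change 0.18, SE 0.056, adjusted p = 0.544), NDUFC2 at 0.1 µM (log2 fold change 0.15, SE 0.049, adjusted p = 0.687) and ATP5MG at 1 µM (log2 fold change 0.15, SE 0.054, adjusted p = 1.00), by edgeR.

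**Figure D3:**
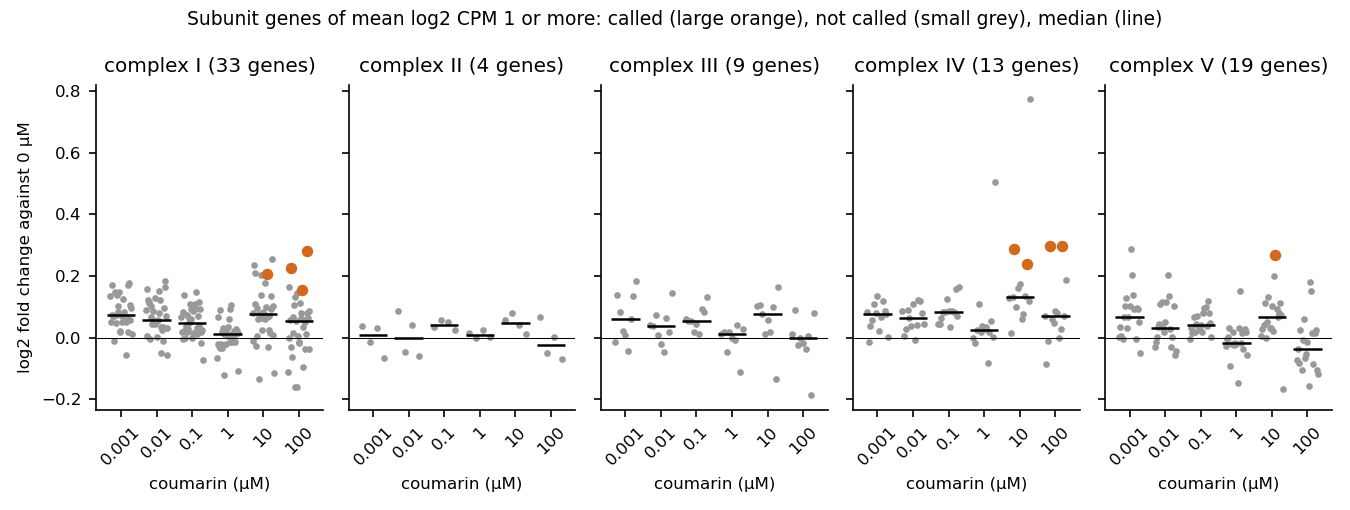
Log2 fold change against 0 µM at each coumarin dose for the 78 well-measured members, in 1 panel per complex, with called members (edgeR adjusted p under 0.05) as large orange points, others in grey and the median as a line. Calls appear at 10 µM (4 members) and 100 µM (5 members), all of them higher than control.

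At 10 µM, 4 members rose, each by less than 0.3 on the log2 scale: ATP5MG, COX6A1, COX8A and NDUFC1. That was 4.88% of the 82 members, while 0.241% of all genes were called higher and 0.321% in either direction (edgeR adjusted p under 0.05). No member fell. Members with an unadjusted p under 0.05 numbered 27 (25 higher and 2 lower), or 32.9% against 12% of all genes, and for 24 members (29.3%) the 3 treated libraries all exceeded the 3 controls, against 8.78% of all genes. The members' median log2 fold change was 0.075, against -0.0030 for all genes, and 71 of 82 were above 0.

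COX6A1 encodes the liver-type isoform of a small regulatory subunit of cytochrome c oxidase and lies on chromosome 12 from 120438090 to 120440742 (GRCh38). Its CPM were 48.2, 46.5 and 52.8 at 0 µM and 56.8, 60.3 and 63.0 at 10 µM, so the groups did not overlap. The means were 49.2 ± 3.29 and 60.0 ± 3.09 (log2 fold change 0.29, SE 0.058, adjusted p = 0.0170, edgeR). COX8A, a small membrane subunit of complex IV and the shortest member gene, lies on chromosome 11 from 63974607 to 63976543 and had 112, 103 and 118 CPM in the controls and 119.8, 132 and 141 at 10 µM. The lowest treated library stood just above the highest control (111 ± 7.59 against 131 ± 10.8; log2 fold change 0.24, SE 0.053, adjusted p = 0.0378). ATP5MG encodes the g subunit, which helps ATP synthase form dimers, and lies on chromosome 11 from 118401154 to 118431496. It had 45.9, 40.7 and 45.3 CPM at 0 µM and 54.6, 49.2 and 55.2 at 10 µM, with 0 µM replicate 2 the lowest of the 6 (log2 fold change 0.27, SE 0.054, adjusted p = 0.0151). NDUFC1, an accessory subunit of complex I on chromosome 4 from 139266880 to 139302551, had the tightest controls, at 43.3, 43.8 and 42.6 CPM, and 48.8, 48.5 and 52.1 at 10 µM (log2 fold change 0.21, SE 0.046, adjusted p = 0.0325).

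The calls at 10 µM ended when single libraries were left out. Without 0 µM replicate 2 no member was called and the median was 0.040, without 10 µM replicate 3 none was called and the median was 0.056, and 9 and 7 genes of all genes were then called in place of 52. Leaving out 0 µM replicate 1 or 10 µM replicate 2 left 2 members called. The calls of COX6A1 and COX8A ended without either of these libraries. That of ATP5MG ended without 10 µM replicate 1, and that of NDUFC1 without 0 µM replicate 1, 0 µM replicate 3 or 10 µM replicate 1. Without 0 µM replicate 1 only ATP5MG of the 4 kept its call, so the 2 included a member not called with all libraries. Leaving out any of the 4 libraries other than 0 µM replicate 2 and 10 µM replicate 3 gave 38 to 59 called genes over all genes. Over the alternatives the adjusted p reached 0.593 for ATP5MG, 0.579 for COX6A1, 0.827 for COX8A and 0.560 for NDUFC1. Leaving out single libraries moved the log2 fold changes less than the calls: they stayed between 0.22 and 0.32 for ATP5MG, 0.25 and 0.35 for COX6A1, 0.18 and 0.30 for COX8A, and 0.17 and 0.23 for NDUFC1. COX8A and NDUFC1 also lost their calls with an offset for gene length, which left 2 members called and a median of 0.054. COX6A1 lost its call when that offset was built on well-measured genes (log2 fold change 0.21, adjusted p = 0.0696) and with the principal transcript offset (0.20, adjusted p = 0.0881), so that only ATP5MG kept its call at 10 µM under every length offset tried.

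By complex, the medians at 10 µM were 0.069 in complex I, 0.048 in complex II, 0.076 in complex III, 0.13 in complex IV and 0.067 in complex V. Complex IV had 9 of its 14 members at an unadjusted p under 0.05, all higher, where 12% of all genes had such a p in either direction. In 10 µM replicate 3 the complex IV median was 0.14 above the all-library mean, and in replicates 1 and 2 it was 0.054 and 0.036 above. In the 3 control libraries it was 0.0063, -0.13 and -0.041, so the 9 members share a low 0 µM replicate 2. Among the 78 well-measured members, 68 had a log2 fold change smaller than 0.2 in size at 10 µM. The largest, 0.77 for NDUFA4L2 (SE 0.38, adjusted p = 0.435), did not pass the test. NDUFA4L2 stood at 1.54 to 2.82 CPM in 19 libraries, 5.15 in 1 µM replicate 3 and 5.67 in 10 µM replicate 3, so 1 of the 3 libraries at 10 µM stood apart. It overlaps the much more abundant SHMT2 on the other strand (201814 reads in all, against 1858).

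At 100 µM, 5 members rose and none fell: COX8A, COX6A1, NDUFA2, NDUFC1 and NDUFS7. This was 6.10% of the 82 members, against 3.77% of all genes called higher, 4.82% called lower and 8.58% in either direction (edgeR adjusted p under 0.05). An unadjusted p under 0.05 was found for 19 members (11 higher, 8 lower), or 23.2% against 23.1% of all genes. The median log2 fold change of the members was 0.015 against 0.0025 for all genes, with 47 of 82 above 0. For 11 members (13.4%) all 3 treated libraries exceeded all 3 controls, as for 13.1% of all genes. Of the 78 well-measured members 74 had a log2 fold change smaller than 0.2 in size, within a range from -0.19 (UQCRHL) to 0.30 (COX8A).

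COX8A had 135, 139 and 136 CPM at 100 µM against 112, 103 and 118 in the controls, a rise from 111 ± 7.59 to 137 ± 2.11 (SD of 3 libraries each; log2 fold change 0.30, SE 0.053, adjusted p = 0.000360, edgeR). COX6A1 rose from 49.2 ± 3.29 to 60.4 ± 2.95 CPM, with 58.5, 63.8 and 58.9 in the single libraries (log2 fold change 0.30, SE 0.058, adjusted p = 0.000883). For both, every treated library lay above every control, and both calls held under all 21 alternatives tried, with log2 fold changes of 0.25 to 0.35 for COX8A and 0.25 to 0.36 for COX6A1. NDUFA2, an accessory subunit of complex I with a thioredoxin-like fold on chromosome 5 from 140638740 to 140647785, had 40.5, 34.7 and 39.0 CPM at 0 µM and 44.9, 43.1 and 45.9 at 100 µM (log2 fold change 0.23, SE 0.057, adjusted p = 0.0100). NDUFS7, a core subunit that carries the last iron-sulfur cluster before ubiquinone, lies on chromosome 19 from 1383527 to 1395589. Its CPM were 17.5, 19.0 and 19.4 in the controls and 23.2, 21.4 and 23.4 at 100 µM (log2 fold change 0.28, SE 0.085, adjusted p = 0.0355). NDUFC1 had 46.6, 49.3 and 48.2 CPM at 100 µM (log2 fold change 0.15, SE 0.046, adjusted p = 0.0317), and the groups of these 3 genes did not overlap either. The NDUFC1 call at 100 µM ended with each of the 4 gene or transcript length offsets (log2 fold change 0.11 with each) and with no filter on low counts (0.15, adjusted p = 0.0751).

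The complex I calls at 100 µM also ended when single libraries were left out. Those of NDUFS7 and NDUFC1 ended without 0 µM replicate 1, those of all 3 genes without 0 µM replicate 2 or 100 µM replicate 3, that of NDUFS7 also without 100 µM replicate 1, and that of NDUFC1 also without 0 µM replicate 3 or 100 µM replicate 2. The adjusted p reached 0.164 for NDUFS7, 0.142 for NDUFC1 and 0.115 for NDUFA2. With single libraries left out the log2 fold changes stayed between 0.24 and 0.33 for NDUFS7, 0.14 and 0.18 for NDUFC1, and 0.16 and 0.28 for NDUFA2. Without 0 µM replicate 2, COX8A and COX6A1 remained higher, ATP5ME was called lower (log2 fold change -0.31, SE 0.078, adjusted p = 0.0158) and the members' median was -0.018. With 100 µM replicate 3 left out only COX6A1 and COX8A were called. All 5 genes overlap other genes. The largest share was that of NDUFS7, with 49.1% of its exon bases shared with AC005329.1 and AC005329.3 on the other strand. NDUFC1 shares 18.5% with MGARP on its own strand. The partners of COX6A1 and COX8A on the same strand, AL021546.1 and AP000721.1, had 11 and 0 reads in all. NDUFA2 overlaps IK (84463 reads in all) and TMCO6 (10297 reads) on the other strand.

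The remaining complexes stood near control at 100 µM. Complex II had a median log2 fold change of -0.024, complex III of -0.00046 and complex V of -0.036, with 12 of 19 complex V genes below 0, against 0.053 in complex I and 0.065 in complex IV. SDHA to SDHD had log2 fold changes of 0.066, -0.051, 0.0032 and -0.071. ATP5F1B and ATP5IF1, the catalytic subunit and the inhibitor of ATP synthase, had -0.036 and -0.0076. For ATP5IF1, control CPM were 168, 141 and 161 and those at 100 µM 155, 155 and 158, which lay within the control range. COX7A1, the muscle isoform, had the lowest fold change, -1.47 (SE 0.63, adjusted p = 0.147), but its controls were only 0.165, 0.245 and 0.442 CPM and the groups overlapped. With a gene length offset the members' median was -0.014, and 2 members, ATP5F1C of complex V and COX5A of complex IV, were then called lower; they were picked out after their values were seen.

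**Figure D4:**
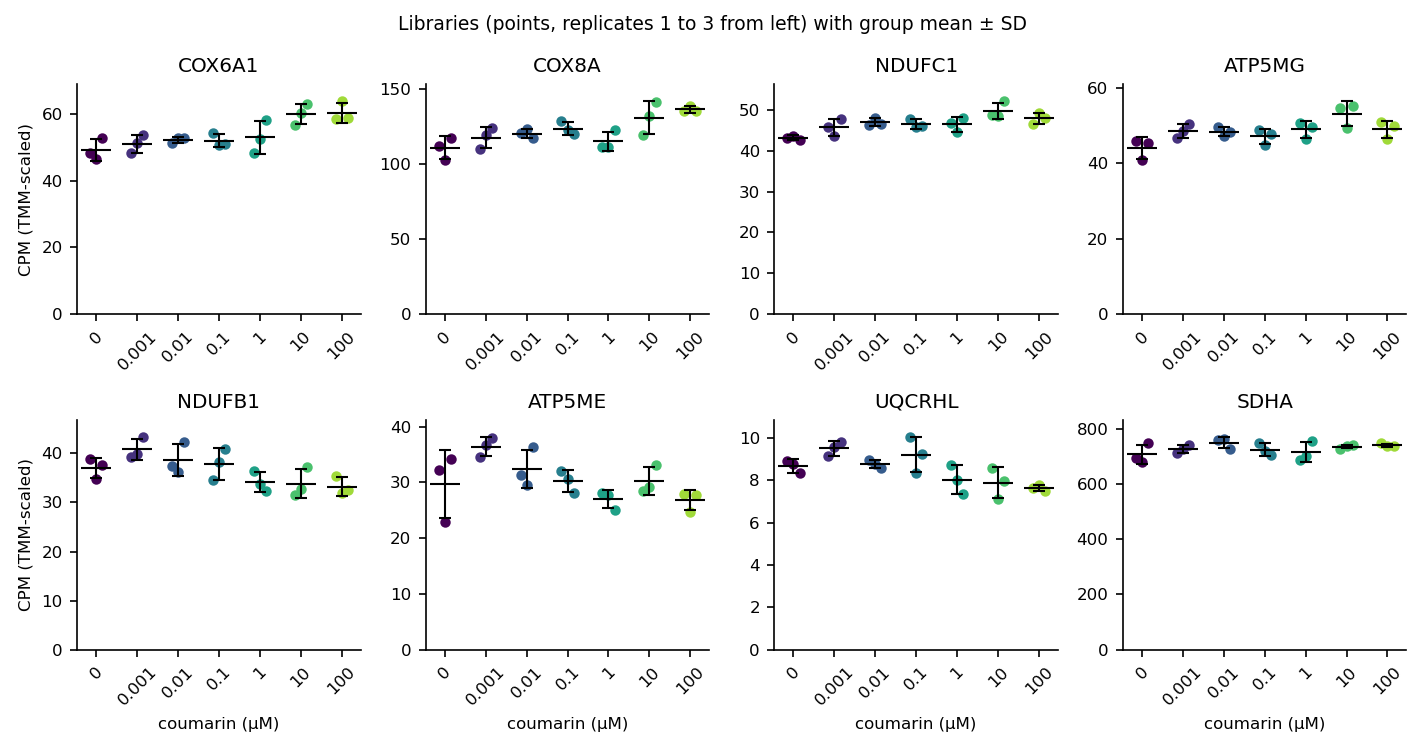
CPM (linear axis from 0) of COX6A1, COX8A, NDUFC1, ATP5MG, NDUFB1, ATP5ME, UQCRHL and SDHA by dose, one point per library with the group mean and SD (n = 3) as bars. COX6A1 and COX8A have their highest means at 10 and 100 µM, and NDUFB1 and UQCRHL their lowest at 100 µM.

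With the 6 treated doses pooled, no member was called against control. All 18 treated libraries against the 3 controls gave 0 called members of 82, while 0.0803% of all genes were called (edgeR adjusted p under 0.05). An unadjusted p under 0.05 was found for 19 members (18 higher), or 23.2% against 11.5% of all genes. The members' median was 0.043, against -0.0011 for all genes, and 0.014 without 0 µM replicate 2. DESeq2 called 1 member and limma on log2(FPKM + 1) 0.

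Among the treated libraries, 7 members had a slope over dose that passed the test, 2 upward and 5 downward. The slope was taken over log10 dose from 0.001 to 100 µM without the controls. The 7 were 8.54% of the members, against 4.45% of all genes (1.93% upward, 2.52% downward). COX6A1 and COX8A rose with dose. NDUFB1 and NDUFA1 of complex I, UQCRHL of complex III, and ATP5ME and ATP5F1E of complex V fell. An unadjusted p under 0.05 was found for 18 members, 5 upward and 13 downward, or 22.0% against 16.1% of all genes. The median slope was -0.0056 per 10-fold of dose, against -0.000097 for all genes, and 17 of 19 complex V genes sloped downward.

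COX6A1 had 48.2, 51.4 and 53.7 CPM at 0.001 µM, 51.3, 52.9 and 52.7 at 0.01 µM, 54.4, 50.7 and 51.2 at 0.1 µM and 48.2, 52.6 and 58.3 at 1 µM. The means of these 4 groups lay between 51.1 and 53.0 CPM, below the 60.0 of the 10 µM group and the 60.4 of the 100 µM group (slope 0.052 on the log2 scale per 10-fold of dose, SE 0.0097, adjusted p = 0.000592, edgeR). COX8A had group means of 118, 121, 124, 115, 131 and 137 CPM from the lowest to the highest dose. The 1 µM group was the lowest of the 6, and the increase lay at 10 and 100 µM (slope 0.038 on the log2 scale per 10-fold of dose, SE 0.0090, adjusted p = 0.00957); this call ended without 0.001 µM replicate 1, and its adjusted p reached 0.0675 over the alternatives.

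NDUFB1 encodes a small membrane subunit of complex I, lies on chromosome 14 from 92116122 to 92121917 and overlaps no other gene. Its CPM were 39.3, 40.0 and 43.3 at 0.001 µM, 37.5, 36.2 and 42.4 at 0.01 µM, 34.5, 38.3 and 41.0 at 0.1 µM, 36.5, 33.8 and 32.3 at 1 µM, 31.5, 32.8 and 37.2 at 10 µM and 35.4, 31.8 and 32.6 at 100 µM. The 3 libraries at 0.001 µM all exceeded those at 1, 10 and 100 µM (slope -0.064 on the log2 scale per 10-fold of dose, SE 0.012, adjusted p = 0.000754). The controls, at 38.8, 34.8 and 37.7 CPM, lay below every library at 0.001 µM and overlapped those at 100 µM, and 100 µM against control was not called (log2 fold change -0.16, SE 0.071, adjusted p = 0.157). UQCRHL, on chromosome 1 from 15807169 to 15809348, fell from 9.51 ± 0.347 CPM at 0.001 µM to 7.63 ± 0.143 at 100 µM (slope -0.064 on the log2 scale per 10-fold of dose, SE 0.014, adjusted p = 0.00488). Its controls were 8.92, 8.79 and 8.33 CPM and its libraries at 100 µM 7.65, 7.76 and 7.48, which did not overlap (log2 fold change -0.19, SE 0.087, adjusted p = 0.188 for that comparison). UQCRH, with which it shares nearly all aligned bases, had a log2 fold change of 0.0047 at 100 µM and a slope of -0.0063. The slopes of COX6A1, NDUFB1 and UQCRHL held under all 32 alternatives.

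The calls of the other 3 falling members ended when any of several libraries was left out, while their slopes stayed negative. ATP5ME encodes the e subunit of ATP synthase, found with the g subunit in the dimers, and lies on chromosome 4 from 672436 to 674338. It had 34.6, 36.7 and 38.0 CPM at 0.001 µM and 27.9, 24.7 and 27.7 at 100 µM (slope -0.076 on the log2 scale per 10-fold of dose, SE 0.019, adjusted p = 0.0293), but its controls spanned that range, at 32.2, 22.8 and 34.1, with 0 µM replicate 2 lowest. ATP5F1E, the epsilon subunit of the rotor stalk on chromosome 20 from 59025467 to 59032382, had 208, 219.7 and 225 CPM at 0.001 µM and 184, 199 and 196 at 100 µM (slope -0.032 on the log2 scale per 10-fold of dose, SE 0.0085, adjusted p = 0.0254). NDUFA1, an accessory subunit on chromosome X from 119871487 to 119876662, had 68.4, 71.7 and 77.1 and 62.4, 63.0 and 57.7 CPM (slope -0.040 on the log2 scale per 10-fold of dose, SE 0.011, adjusted p = 0.0396). All 3 calls ended without 0.001 µM replicate 2 or 3, 0.01 µM replicate 3, 10 µM replicate 2 or 100 µM replicate 1 or 3. That of ATP5ME also ended without 10 µM replicate 1 or 100 µM replicate 2, and that of NDUFA1 without either of these or 5 other libraries (0.01 µM replicate 1, 0.1 µM replicates 1 and 3, and 1 µM replicates 2 and 3). The adjusted p reached 0.111 for ATP5ME, 0.122 for ATP5F1E and 0.145 for NDUFA1. With single libraries left out the slopes ran from -0.083 to -0.068 for ATP5ME, from -0.036 to -0.027 for ATP5F1E and from -0.045 to -0.033 for NDUFA1. For ATP5ME, 61.6% of its exon bases are shared with MYL5 on the other strand, and NDUFA1 overlaps RNF113A there.

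The test over the 7 groups called 4 members (4.88%, against 4.65% of all genes): COX6A1 (edgeR adjusted p = 0.00160), COX8A (0.00269), NDUFB1 (0.0258) and ATP5MG (0.0459). Over the 6 treated doses the count was also 4 (4.88%, against 4.43% of all genes), with UQCRHL (adjusted p = 0.0494) in place of ATP5MG. Without 100 µM replicate 2 or 3 the first count was 2, and without 0.1 µM replicate 1 it was 7. The second was 2 without 100 µM replicate 1 or 2 and 1 without replicate 3. Counts over all genes moved as well. Leaving out single libraries gave 361 to 1144 called genes in the first test (753 with all libraries) and 354 to 1027 in the second (717).

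At 10 µM the members' median was above 0 in every class of gene length. Members under 1000 bases (9 genes) had a median log2 fold change of 0.092, those from 1000 to under 2000 bases (21 genes) 0.11, those from 2000 to under 4000 bases (30 genes) 0.069 and those of 4000 bases and over (22 genes) 0.056. Other well-measured genes had 0.047, 0.074, 0.034 and -0.017 in the same classes. At 100 µM the members had 0.013, 0.055, -0.00032 and 0.00024, and the others 0.0064, 0.041, 0.023 and -0.017. With an offset fitted to each library's trend over gene length in all tested genes, low-count genes included, members at 10 µM had 0.072, 0.058, 0.039 and 0.065. Other well-measured genes then had 0.061, 0.023, 0.0039 and -0.00044, so a difference by length remained among them, and that of the shortest class was not smaller than before. Over all members, the median at 10 µM was 0.054 with that offset and 0.038 when the same offset was built on well-measured genes. An offset for the length of the principal transcript, also built on well-measured genes, left 0.012. The size of the members' median at 10 µM thus moved both with the genes and with the length that the offset was built on.

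**Figure D5:**
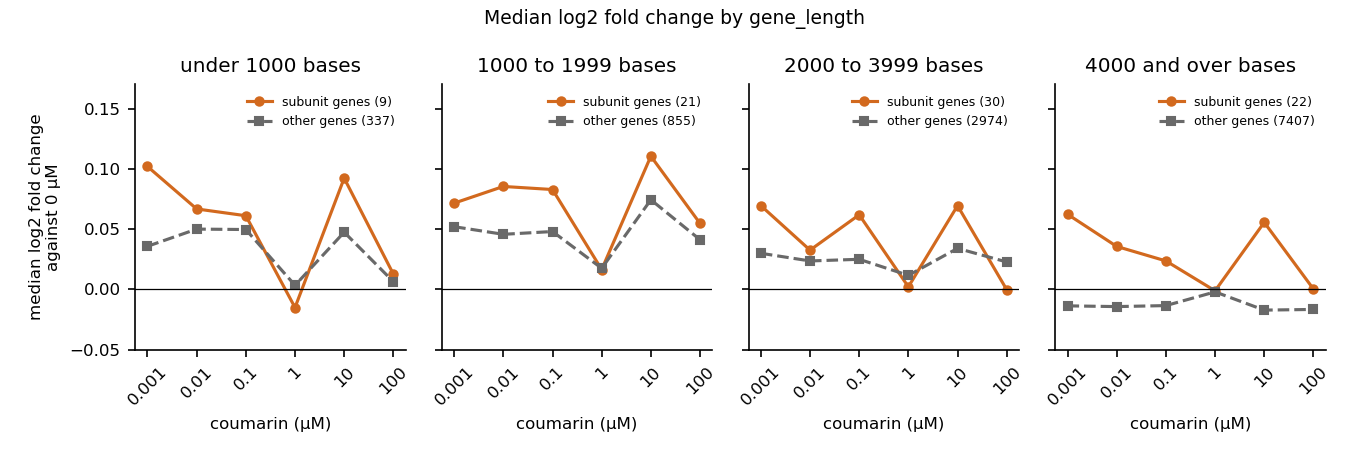
Median log2 fold change against 0 µM (vertical axis) at each coumarin dose for the members (orange) and for other well-measured genes (grey), in 1 panel for each of 4 classes of gene length. At 10 µM the members' medians are 0.092, 0.11, 0.069 and 0.056 from the shortest to the longest class, and those of other genes 0.047, 0.074, 0.034 and -0.017.

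Genes that work with the respiratory chain were counted by the same tests. Of 13 subunits encoded by mitochondrial DNA, which took 4.39% to 5.43% of the counts, 0 were called at any dose, in the pooled comparison or in the slope, with 0 to 2 at an unadjusted p under 0.05 in each. Their median log2 fold changes were 0.092, 0.086, 0.090, -0.040, 0.057 and 0.033 from the lowest to the highest dose, of the same sign as the members' medians except at 1 µM. The 3 nuclear subunits that the members' name patterns leave out, CYC1 (187 FPKM), CYCS (71.8 FPKM) and NDUFAB1 (55.0 FPKM), had no call. Of 49 assembly factors 1 rose at 100 µM, COX19, a copper chaperone of complex IV assembly (12.8 ± 0.948 to 15.8 ± 0.479 CPM with the SD of 3 libraries, log2 fold change 0.30, SE 0.071, edgeR adjusted p = 0.00584). At that dose 3.77% of all genes were called higher and 8.58% in either direction. None of 11 transcription regulators, NRF1, GABPA and TFAM among them, was called at any dose, with 0 or 1 at an unadjusted p under 0.05.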

How the data were processed

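Per the labels, RNA of cells labelled HepG2 was extracted with Trizol, selected with poly(dT) beads and converted to cDNA with SmartScribe. The deposited table holds the authors' whole-number read counts per gene, not normalized, for 21 libraries. The deposited FPKM are those counts over gene length, with a single scale factor in each library (largest relative deviation 1.07e-06), and gene lengths equal the union of exons in GENCODE 29 for all 58735 genes. Per the submitters' processing notes, HISAT2, DESeq2 and GRCh38 were used, with no role stated. Not given in the sources used here are the counting tool and its use of strand.

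Libraries were grouped by the dose in their titles. Comparisons were tested with edgeR 4.0.16 in R 4.3.3 (filterByExpr, TMM, robust quasi-likelihood, 1 mean per dose, all 21 libraries, 14 residual degrees of freedom, common biological coefficient of variation 0.0436). Benjamini-Hochberg adjustment covered all 16196 genes tested, the threshold was 0.05, and standard errors were the fold change over the square root of F. CPM are TMM-scaled, and length trends used log2 ratios with 0.5 reads added. Depth was 27984517 to 43704155 counts per library.

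Members and lists were chosen with earlier results of these data known. Members named with values are those called in any dose, pooled or slope comparison, the 3 highest and 2 lowest FPKM, shortest and longest of each complex, the isoform pairs, SDHA to SDHD, ATP5IF1 and the 3 smallest p at each dose; context lists give up to 4 genes by p at 100 µM. NDUFA4 and NDUFA4L2 were put with complex IV. Alternatives were other scalings and filters, gene and transcript length offsets, DESeq2 1.42.0, limma 3.58.1 on log2(FPKM + 1) or log2(FPKM + 0.1), a replicate block, a threshold of 0.01 and leaving out libraries. Figures were drawn with matplotlib 3.10.9.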

Additional observations from a re-analysis of the deposited data

How the results depend on the processing

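Leaving out each library in turn gave 0 to 3 called members at 10 µM (4 with all libraries), 2 to 6 at 100 µM (5), 4 to 7 for the slope (7), 2 to 7 in the test of 7 groups (4) and 1 to 4 in that of 6 treated doses (4). Of all genes tested, 7 to 59, 699 to 1603, 461 to 829, 361 to 1144 and 354 to 1027 were then called. The members' median ranged from 0.027 to 0.097 at 0.001 µM, 0.0093 to 0.078 at 0.01 µM, 0.028 to 0.084 at 0.1 µM, -0.021 to 0.029 at 1 µM, 0.040 to 0.11 at 10 µM and -0.018 to 0.053 at 100 µM, and from 0.014 to 0.074 for the pooled comparison. Without 0 µM replicate 2 and 10 µM replicate 3 together, 0 members were called at 10 µM and 3 at 100 µM, and the medians were 0.027 at 0.001 µM and 0.030 at 10 µM. Of all genes, 9 were then called at 10 µM and 735 at 100 µM. NDUFA2, NDUFC1 and NDUFS7 lost their calls at 100 µM, so the 3 included a member not called there with all libraries. The 2 libraries left out together, and the offsets built on well-measured genes, were chosen after seeing the data.

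With no filter on low counts, called members were 2 at 0.001 µM, 1 at 0.01 µM, 11 at 10 µM, 5 pooled, 11 for the slope, 20 in the test of 7 groups and 15 among the treated doses, of 88 members. Of all 33791 genes then tested, 10, 20, 302, 179, 729, 1415 and 1155 were called, against 0, 0, 52, 13, 721, 753 and 717 with the filter; the cause was not tested. At an adjusted p under 0.01 called members were 0 at 10 µM, 2 at 100 µM, 4 for the slope, 2 among the 7 groups and 1 among the treated doses. Of all 16196 genes, 15, 616, 343, 371 and 356 were called, so 2.44% of members at 100 µM stood against 3.80% of all genes. DESeq2 called 1 pooled, 11 among the 7 groups and 9 among the treated doses, and 87, 1139 and 1021 of all genes. Limma on either FPKM scale called 1 at 10 µM, 4 for the slope, 1 among the 7 groups and 0 among the treated doses. Of all genes, limma on log2(FPKM + 1) called 17, 600, 531 and 535, and on log2(FPKM + 0.1) 27, 570, 525 and 527. Scaling by library totals gave 2 members over the 7 groups, and 702 of all genes. Counting only subunits that overlap no other gene gave fewer members by construction (36 tested members overlapped none). Called members were then 0 at 10 µM, 0 at 100 µM and 2 for the slope. Among the 7 groups 1 was called, and among the treated doses 2. Of all genes, overlapping or not, 0.321%, 8.58% and 4.45% were called at 10 µM, at 100 µM and for the slope. The shares were 4.65% among the 7 groups and 4.43% among the treated doses. A link between overlap and calls was not tested.

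The gene length offset left 2 called members at 10 µM, and 1 when built on well-measured genes. Of all genes, 51 and 50 were then called at 10 µM. The principal transcript offset left 1 there (45 of all genes), with members' medians of 0.022 at 0.001 µM, 0.0045 at 0.01 µM, 0.012 at 10 µM and 0.0032 pooled. With the replicate number as a block, 4 members were called at 10 µM and 6 at 100 µM (ATP5MG added), beside 70 and 1350 of all genes. With the block and the gene length offset together, 2 members were called at 10 µM and 7 over the 7 groups, beside 56 and 774 of all genes. The numbers do not pair the libraries: deviations of same-numbered libraries had a mean correlation of -0.0036 (63 pairs), and 8 of 21 libraries correlated best with their own number.

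Of the 16 calls of a member in a dose or slope comparison, 5 held under every alternative: COX6A1 and COX8A at 100 µM and the slopes of COX6A1, NDUFB1 and UQCRHL. No result changed sign against a call. Depth limits COX7A1, NDUFA7, NDUFA13 and NDUFV2, whose mean log2 CPM was under 1.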

Other observations

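Other mitochondrial lists showed single changes at 100 µM. Of 16 genes of the citric acid cycle and pyruvate dehydrogenase, 1 fell, PDHB, the beta subunit of pyruvate dehydrogenase E1, with 118 ± 4.62 CPM at 0 µM and 109 ± 2.42 at 100 µM (SD of 3 libraries; a difference of -0.12 on the log2 scale, SE 0.040, edgeR adjusted p = 0.0469). It also sloped downward among treated libraries (slope -0.027 per 10-fold of dose, SE 0.0067, adjusted p = 0.0116). The median of the 16 genes was -0.040 at 100 µM. Of 7 mitochondrial protease and chaperone genes, 1 rose, HSPE1, the co-chaperonin of HSPD1, with 119 ± 7.05 CPM at 0 µM and 132 ± 1.57 at 100 µM (a difference of 0.15, SE 0.043, adjusted p = 0.0222). LONP1, the matrix protease, had 0.15 (adjusted p = 0.0527) and HSPD1 -0.085 (adjusted p = 0.124), and neither passed the test. At 100 µM 8.58% of all tested genes were called.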
